A study of Mus musculus with 8 samples.

Results

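Mbd3 binding was mapped by chromatin immunoprecipitation with sequencing (ChIP-seq) in the kidney cortex of 2-month-old mice, and the sites are described here by their position, spacing and density along genes. All 134248 Mbd3 peaks on chromosomes 1 to 19 and X were taken, of 408719 peaks in the 3 lists of the series (149855 for Mta2 and 124616 for Zbtb7a). The series holds 8 libraries in 4 groups of 2: Mbd3, Mta2, Zbtb7a and Input, the chromatin before immunoprecipitation. Every group, Input included, carried the genotype Mta2flx/flx, in which both Mta2 alleles are flanked by loxP sites. No Cre driver is named in the labels, and no treatment of the animals. Tissue was fixed with 2 mM disuccinimidyl glutarate and then 1% formaldehyde. A single peak list stands for both Mbd3 libraries. No value carries a spread between mice, and no difference between groups could be tested. Everything below describes that list.

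Mbd3 is part of NuRD, the nucleosome remodelling and deacetylase complex, which joins an ATP-driven remodeller of the Chd family to the histone deacetylases Hdac1 and Hdac2. Mbd3 belongs to the methyl-CpG binding domain family, yet the mammalian protein binds methylated CpG poorly, unlike its relative Mbd2, and the 2 proteins occupy alternative forms of the complex. NuRD is found at active promoters and enhancers as well as at silenced genes, and it tunes transcription there. Kidney cortex holds proximal tubules, glomeruli, distal segments, vessels and stroma, so a peak cannot be assigned to 1 of these cell types.

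The fold of a peak is the authors' own ratio of signal over background at its summit, the position of highest signal. The Mbd3 folds ran from 1.13 to 97.87, with a median of 5.018 and quartiles of 3.323 and 9.721. Peaks had a median width of 422 bp and covered 78.12 Mb. Sequencing depth per library was not analysed here. A stretch with no peak stayed under the authors' threshold, and whether Mbd3 was present there below it is unknown.

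Promoters of kidney genes with a Mbd3 summit came in forms with many and with few CpG dinucleotides. To show both, the 250 bases before the RefSeq start site are printed for 8 kidney genes (RefSeq, GRCm38.p6, which has the coordinates of mm10; each sequence is 5′ to 3′ on the strand of its gene). They were chosen after their values were seen: the highest folds with a summit in those 250 bases, among promoters with at most 5 and among those with at least 30 CpG in the 300-base window. The first 5 hold few CpG, and capitals mark GTTAAT or its reverse complement ATTAAC, the core of sites bound by the tubule factor HNF1. Atp6v0a4 encodes a proton pump subunit of intercalated cells (chr6:38124587-38124836, minus strand, fold 60.78). Slc4a4 encodes the bicarbonate exit carrier of the proximal tubule (chr5:89027716-89027965, plus strand, fold 54.58). G6pc encodes glucose-6-phosphatase (chr11:101367466-101367715, plus strand, fold 37.31), and Slc22a6 the organic anion transporter OAT1 (chr19:8617746-8617995, plus strand, fold 28.19). Umod encodes uromodulin of the thick ascending limb (chr7:119479263-119479512, minus strand, fold 26.40).
Atp6v0a4: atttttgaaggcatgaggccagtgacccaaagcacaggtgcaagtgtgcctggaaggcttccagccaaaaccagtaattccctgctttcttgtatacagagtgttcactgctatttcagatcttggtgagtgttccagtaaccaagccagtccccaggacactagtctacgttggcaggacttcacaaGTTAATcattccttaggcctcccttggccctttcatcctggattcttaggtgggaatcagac
Slc4a4: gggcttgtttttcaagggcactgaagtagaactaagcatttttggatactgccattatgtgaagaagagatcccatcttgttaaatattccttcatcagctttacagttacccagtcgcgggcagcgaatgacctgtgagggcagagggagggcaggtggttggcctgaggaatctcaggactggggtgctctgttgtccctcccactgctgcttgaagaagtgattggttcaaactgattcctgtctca
G6pc: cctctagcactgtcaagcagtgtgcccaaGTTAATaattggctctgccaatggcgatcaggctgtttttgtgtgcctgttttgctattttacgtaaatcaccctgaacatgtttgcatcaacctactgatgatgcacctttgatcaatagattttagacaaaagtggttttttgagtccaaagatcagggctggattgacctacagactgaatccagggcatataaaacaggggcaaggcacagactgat
Slc22a6: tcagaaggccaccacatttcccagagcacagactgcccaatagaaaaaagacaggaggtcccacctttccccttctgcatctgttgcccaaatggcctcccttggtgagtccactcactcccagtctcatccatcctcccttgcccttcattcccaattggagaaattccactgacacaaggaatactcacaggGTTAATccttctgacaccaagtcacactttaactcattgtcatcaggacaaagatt
Umod: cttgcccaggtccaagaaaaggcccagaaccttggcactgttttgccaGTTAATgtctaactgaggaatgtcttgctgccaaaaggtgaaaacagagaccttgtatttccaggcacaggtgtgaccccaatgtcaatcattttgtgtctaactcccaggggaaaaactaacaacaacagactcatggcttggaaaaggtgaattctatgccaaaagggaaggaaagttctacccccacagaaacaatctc
Atp6v0a4, Slc4a4, G6pc, Slc22a6 and Umod hold 1, 3, 2, 0 and 0 CpG in these 250 bases. GTTAAT is present in all of them but Slc4a4.

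The next 3 promoters are rich in CpG, and here capitals mark every CpG. Rxra encodes a nuclear receptor (chr2:27676951-27677200, plus strand, fold 37.79), and Sall1 a zinc finger factor of nephron progenitors (chr8:89042863-89043112, minus strand, fold 36.30). Atp11a encodes a phospholipid flippase (chr8:12756766-12757015, plus strand, fold 31.78).
Rxra: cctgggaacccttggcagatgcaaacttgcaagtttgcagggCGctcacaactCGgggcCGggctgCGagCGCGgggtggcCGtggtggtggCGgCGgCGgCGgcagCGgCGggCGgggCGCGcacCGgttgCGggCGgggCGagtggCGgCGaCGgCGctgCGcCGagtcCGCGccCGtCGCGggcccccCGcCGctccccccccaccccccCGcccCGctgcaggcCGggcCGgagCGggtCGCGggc
Sall1: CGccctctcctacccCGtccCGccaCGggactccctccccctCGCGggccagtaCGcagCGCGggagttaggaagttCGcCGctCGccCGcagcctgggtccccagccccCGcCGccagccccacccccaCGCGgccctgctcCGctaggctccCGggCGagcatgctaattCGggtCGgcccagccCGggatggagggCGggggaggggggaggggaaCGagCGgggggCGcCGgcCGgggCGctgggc
Atp11a: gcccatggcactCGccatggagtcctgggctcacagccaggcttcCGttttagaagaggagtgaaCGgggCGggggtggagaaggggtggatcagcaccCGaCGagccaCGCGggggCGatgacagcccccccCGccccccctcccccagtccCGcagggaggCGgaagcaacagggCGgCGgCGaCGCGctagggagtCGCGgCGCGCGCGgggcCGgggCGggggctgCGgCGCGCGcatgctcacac
Rxra, Sall1 and Atp11a hold 40, 30 and 29 CpG in the printed stretches. The letters GGGCGG, the GC box bound by Sp and Klf factors, occur in each of the 3 and in none of the CpG-poor 5.

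Across the RefSeq promoters used, a Mbd3 summit was the more frequent the more CpG the promoter held. Of 21045 windows, each reaching from 250 bases before a start site to 50 after it, 9060 held a summit (43.1%). These windows belong to 17274 of 21631 protein-coding genes, and promoters and start sites of chromosome 18 were not analysed here. The share with a summit was 7.551% at 0 to 2 CpG per window, 28.24% at 6 to 10 and 71.49% at 31 or more. Median fold where a summit was present went from 7.602 at 0 to 2 CpG and 6.793 at 3 to 5 up to 18.47 at 31 or more. Windows with a summit held a median of 22 CpG, and those without held 6.

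**Figure D1:**
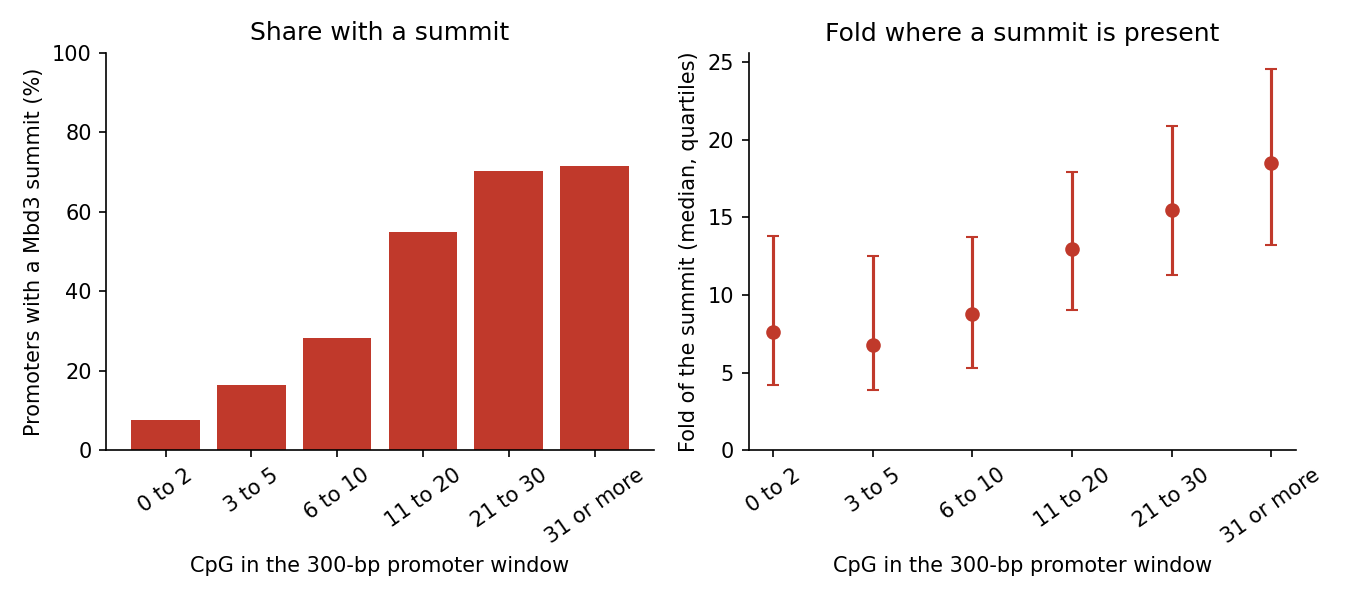
Left, share of RefSeq promoter windows with a Mbd3 summit against the number of CpG in the window. Right, fold of the summit as the median (points) with quartiles (bars). The share climbs from 7.551% to 71.49% over the 6 classes, and the quartiles of fold overlap between neighbouring classes.

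Occupied promoters of the kidney lists held fewer CpG than occupied promoters as a whole, though more than kidney-list promoters without a summit. These lists name 263 genes of kidney cell types and kidney transcription factors. Of their RefSeq windows, 116 held a summit and 124 did not, where the share of all windows with one is 43.1%. The median of the 116 was 11 CpG, and 27.59% had at most 5, against 8.444% of all occupied windows. The 124 had a median of 6 CpG, as did all windows without a summit. At most 5 CpG were in 39.52% of the 124 and in 49.32% of all windows without a summit. Occupied CpG-poor promoters in the kidney lists had a median fold of 12.39 (32 windows), and those outside the lists had 6.933 (733 windows).

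Short motifs were searched on both strands in all 21045 windows, and a match is only a match of letters. GGGCGG was found in 68.77% of windows with a summit and in 29.95% of those without, and CCGGAAG, the core of sites for ETS factors, in 20.34% and 5.14%. Both motifs contain a CpG themselves. TATAAA, the TATA box, went the other way, with 6.071% and 17.64%. CCAAT, the box bound by NF-Y, was as frequent with a summit (38.62%) as without (38.39%). GTTAAT was in 4.238% of windows with a summit and in 7.776% of those without. Among CpG-poor windows, with at most 5 CpG, the order was reversed: 15.82% of the 765 with a summit held it and 10.71% of the 5911 without. Of the CpG-poor kidney-list windows, 9 of 32 with a summit (28.12%) and 8 of 49 without one (16.33%) held it. It was in 15.28% of the occupied CpG-poor windows outside the lists. CAAAGTCCA, a sequence bound by HNF4, was in none of these kidney-list windows and in 2.865% of the occupied CpG-poor windows outside the lists. None of these motifs contains another.

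Summits near start sites lay on both sides of them, more often upstream. Within 1 kb of 21020 start sites there were 12323 Mbd3 summits, of which 60.88% were upstream, with a median offset of -25 bp and quartiles of -99 and 43 bp. Of these, 8970 (72.79%) lay within 200 bp of the start site, with a median fold of 13.87, against 7.637 for the summits farther out. Among 17274 genes with a known strand, 62.34% had a summit within 1 kb of the 5′ end and 16.09% within 1 kb of the 3′ end.

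**Figure D2:**
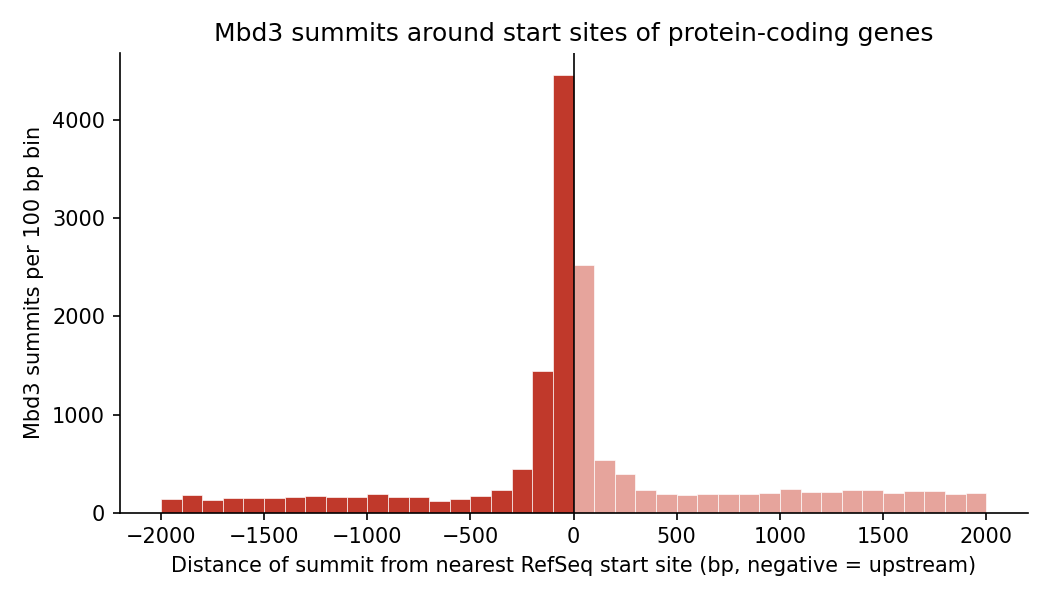
Mbd3 summits per 100 bp bin around the nearest RefSeq start site (0), with negative distances upstream in dark and positive ones downstream in light red. The tallest bin lies directly upstream of the start site, and counts fall off on both sides of it.

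Most Mbd3 summits lay away from gene ends. Inside protein-coding genes and over 1 kb from any gene end were 69631 summits (51.87%). A further 48507 (36.13%) were distal, outside every gene and over 1 kb from any end. Within 1 kb of an end were 16110 (12%, exact 95% binomial interval 11.83 to 12.18, which covers counting error only). Gene-end summits were the strongest and widest, with a median fold of 11.18 and a median width of 885.5 bp. Summits inside genes had 4.639 and 403 bp, and distal ones 4.733 and 385 bp. Among the 10444 summits with a fold of at least 20, 30.75% were at gene ends, 41.76% inside genes and 27.49% distal.

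Along the span of genes, summits thinned from the 5′ to the 3′ end. Over 11035 genes with known strand and a span of at least 10 kb, the first 10% of the span held 18.58% of 59659 summits, the next 10% held 11.13% and the last 10% held 7.814%. The median fold was 7.149 in the first 10% and between 4.624 and 4.8 in each of the others. The first 10% begins at the 5′ end, where the start-site summits described above gather.

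Distal summits reached far from genes, with a median distance of 27.86 kb to the nearest gene end and quartiles of 8.601 and 89.23 kb. There were 11110 beyond 100 kb and 266 beyond 1 Mb. The median fold was 4.733 at 1 to 5 kb and 4.229 beyond 500 kb. The strongest distal peak, also the highest fold of the whole list (97.87), lay 8.455 kb from Tob2, which encodes an antiproliferative protein (chr15:81838454-81840539). Another of fold 71.32 lay 16.54 kb from Klf15, a transcription factor of podocytes and tubules (chr6:90504808-90509916). A peak of fold 42.80 lay 969.6 kb from the nearest protein-coding gene, Reep3 (chr10:66039266-66040093). All 3 overlapped a peak of both other lists, and such overlap was common. Among all Mbd3 peaks, grouped by the size of the clusters described below, 90.49 to 93.64% overlapped a Mta2 peak. For Zbtb7a the share was 74.05 to 85.13%.

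Neighbouring summits had a median distance of 4878 bp, with quartiles of 1989 and 14093 bp. Of all distances, 50.65% were under 5 kb and 8.126% under 1 kb, and the shortest was 226 bp. Empty stretches were few and long: 4378 distances over 100 kb (3.262%) made up 44.24% of the length between the first and last summits. The medians for Mta2 and Zbtb7a were 4634 and 4873 bp. The peak caller's merging and the size of the fragments, sheared to between 100 and 1000 bp, limit how close 2 summits can be resolved.

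**Figure D3:**
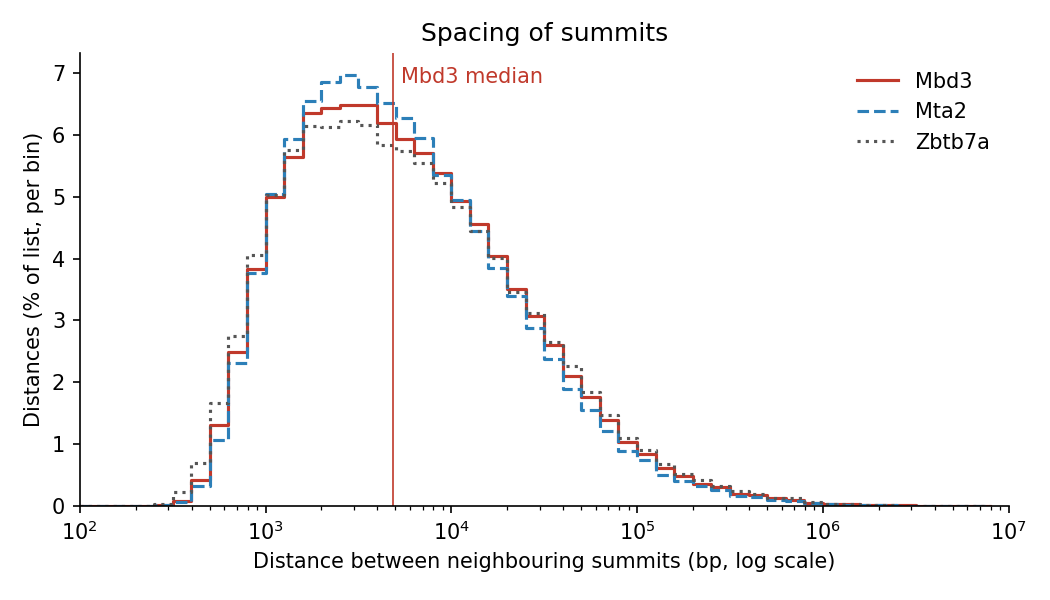
Distances between neighbouring summits on a log scale, as the percent of each list per bin, for Mbd3 (solid), Mta2 (dashed) and Zbtb7a (dotted). The vertical line marks the Mbd3 median of 4878 bp, and all 3 curves are broad with a single maximum below it.

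The longest stretch without a Mbd3 summit was 4.073 Mb on chromosome 8 between the summits nearest to Got2, an aspartate aminotransferase, and Cdh11, a cadherin of mesenchymal cells. It contains Cdh8, a cadherin of neurons, and held 3 Mta2 and 2 Zbtb7a summits. The next 2 were on X, of 2.997 Mb between Il13ra2 and Tmem29 with 15 genes inside, and of 2.633 Mb between Gm4907 and Gm6121 with 12 genes inside. Neither held a summit of Mta2 or Zbtb7a. Both hold many predicted genes with Gm symbols. Per Mb, the X chromosome had 14.17 summits, and the autosomes had from 44.09 (chromosome 3) to 78.37 (chromosome 11). X also had fewer per gene, 2.457, against 3.929 or more on every autosome. The sex of the mice is not given in the labels used here and was not tested. Mbd3 peaks were also called on chromosome Y, and they are described further below.

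Summits gathered in dense regions. In 1 Mb bins the median was 41 summits, and the densest 258 of 2581 bins held 27.89% of all summits. The sparsest 1290 bins held 14.78%. Across bins, counts of summits and of genes had a Spearman correlation of 0.65 as a description, since neighbouring bins are not independent. The fullest bin, with 224 summits, lies on chromosome 2 and holds Cebpb, Snai1 and Ptpn1. Cebpb and Snai1 encode transcription factors and Ptpn1 a tyrosine phosphatase.

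Neighbouring summits were joined into clusters up to a fixed distance, set between the 5 kb and 25 kb that were tried as alternatives. This gave 36859 clusters, of which 16872 were single summits. There were 906 clusters of 20 or more summits. They held 28412 summits (21.16%) over 92.66 Mb and had a median span of 93.18 kb. Mta2 had 1152 such clusters and Zbtb7a 836. Single summits had a median fold of 4.431, and summits in clusters of 20 or more had 5.28. Of single summits, 4.161% reached a fold of 20, against 10.19% in those clusters. Single summits were more often distal (48.87% against 25.74%) and less often inside a gene (36.34% against 65.34%).

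The 2 largest clusters held 124 summits each. One spans 421.6 kb on chromosome 2 (chr2:165816099-166237675) with Zmynd8, which encodes a chromatin reader known to bind NuRD, Ncoa3, a coactivator of nuclear receptors, Sulf2, a heparan sulfate sulfatase, and LOC115489489. The other spans 453 kb on chromosome 8 (chr8:120096632-120549674) with Gse1, Zdhhc7, Cibar2 and 6430548M08Rik, and reached a fold of 57.96. The fourth (95 summits) lies in Arid1b, a subunit of the BAF remodelling complex, and the fifth (89) covers Tns1, a focal adhesion protein, and Rufy4.

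Other large clusters lay at genes known in the kidney, named here after their values were seen. A cluster of 86 summits over 280.2 kb covers Ppara, the receptor that drives fatty acid oxidation in proximal tubules, and Cdpf1, Pkdrej, Ttc38 and Gtse1. The span of Ppara itself held 18 of these summits. The divergent pair Col4a1 and Col4a2, which encode collagen IV chains of basement membranes, held 84 over 209.3 kb. In all, clusters of 20 or more overlapped 2244 protein-coding genes (10.4%), and 58 of the 263 kidney-list genes (22.05%). The strongest summit lay at a gene end in 170 of the 906 clusters, inside a gene in 512 and in distal sequence in 224.

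Longer genes held more summits. Of 21631 protein-coding genes, 14313 (66.2%) had a summit inside the span, 16545 (76.5%) had one inside or within 1 kb, and 2117 (9.79%) had 10 or more. Counts followed gene span with a Spearman correlation of 0.68 across genes, which are not independent replicates. Genes over 200 kb had a median of 13 summits but only 0.3279 per 10 kb, against 0.7355 per 10 kb for genes of 20 to 50 kb. The most summits were in Arhgap26 (132), a GTPase-activating protein, Zbtb20 (117), a zinc finger repressor, and Pde4d (113), a cAMP phosphodiesterase. Syn3 (109), Arid1b (103), Lrmda (102), Itpr1 (99), Prkce (99), Gse1 (98) and Glis3 (96) followed. Arhgap26 overlaps 3 other coding genes, and 47 of its 132 summits lie in the overlap. Without them it would hold 85 and would not come first. Syn3, a synapsin of neurons, overlaps 2 others with 28 of its 109 summits.

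Kidney-list genes held more summits per 10 kb than genes as a whole. Of the 263, 236 (89.73%) held a summit in the span, 251 (95.44%) had one in the span or within 1 kb, and 219 (83.27%) had one at an end, where the share of all genes is 65.5%. Their median was 4 summits and 1.343 per 10 kb, against 1 and 0.5632 for all protein-coding genes. The median span of these genes was 26.81 kb, against 17.33 kb for all genes, which bears on the counts. Of the 263, 73 held 10 or more (27.76%).

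**Figure D4:**
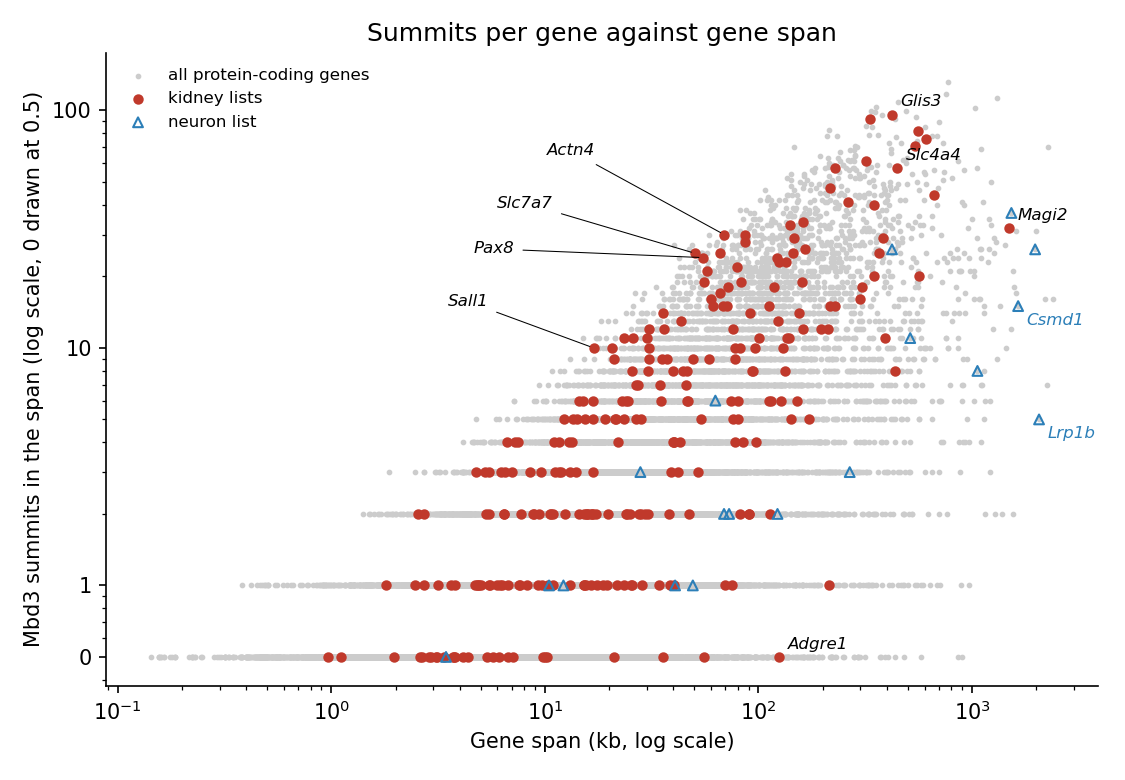
Mbd3 summits in the span of each protein-coding gene (grey) against its span, both on log scales, with kidney-list genes in red and genes of the neuron list as blue triangles. Counts rise with span, and kidney genes such as Actn4 and Slc7a7 lie near the upper edge. Neuron genes lie on both sides of genes of similar span. Lrp1b holds 5 summits where the median of such genes is 16, and Csmd1 holds 15 against 18. Rbfox1 holds 37 against 19.5, Dlg2 26 against 16.5 and Rbfox3 26 against 12.

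The 20 kidney genes with most summits held 1009 of the 2410 in all 263. Regulators led. Glis3, a zinc finger factor whose loss causes cystic kidneys, held 96 summits over 421.4 kb (chr19:28258851-28680265), 11 of them with a fold of at least 20. Nedd4l, the ubiquitin ligase that limits the sodium channel ENaC, held 92. Mecom (82), a factor of the distal nephron, Esrrg (76), an orphan receptor of mitochondrial genes, and Nfia (71), of the nuclear factor I family, came next. Then followed Cux1 (61), Tead1 (57), which works with YAP, Nfib (47) and Ppargc1a (44), the coactivator PGC-1alpha. The transporter Slc4a4 held 57.

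The other 10 held 28 to 41 summits. Stk39 (41) encodes the kinase SPAK that activates the salt cotransporters, and Bach2 (40), Rxra (30) and Dach1 (29) encode transcription factors. Lrp2 (34) encodes megalin and Dab2 (33) its endocytic adaptor, both of the proximal tubule. Magi2 (32) and Actn4 (30) encode podocyte scaffold and actin crosslinking proteins, Nrp1 (29) an endothelial co-receptor for VEGF, and Cldn10 (28) the claudin of the thick ascending limb. The next gene in order had 26 summits. Span differs widely among them: Magi2 spread 32 over 1485 kb (0.22 per 10 kb), whereas Actn4 had 30 in 69.1 kb (4.34 per 10 kb).

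In most of these 20 genes the strongest summit lay away from the start of the gene. These genes were chosen for their many summits, and this position was not compared with that in other genes. RefSeq start sites were used for 17 of the 20, and summits in the span or within 1 kb of it were compared. In 14 of the 17 the strongest summit lay over 1 kb from every such start site and from the 5′ end of the gene. In Stk39 it lay at an offset of -169 bp (upstream) from the start site, with a fold of 29.82. In Cux1 (29.42) it lay 0.28 kb from the 5′ end of the gene, though at an offset of -1.329 kb (upstream) from the nearest RefSeq start site used. In Slc4a4 the peak of fold 54.58 lay 233.9 kb from the 5′ end of the gene and at -218 bp from an internal RefSeq start site, the promoter printed above. In Glis3 the strongest summit (38.68) lay 179.1 kb from the 5′ end, and in Lrp2 (48.74) 19.50 kb from it. In Actn4 (48.71) it lay 36.82 kb and in Slc7a7 (45.43), which encodes a cationic amino acid exchanger, 32.40 kb from the 5′ end. The largest interval without a summit in Lrp2 was 65.70 kb. The median distance between summits was 1.534 kb in Lrp2 and 2.646 kb in Glis3.

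**Figure D5:**
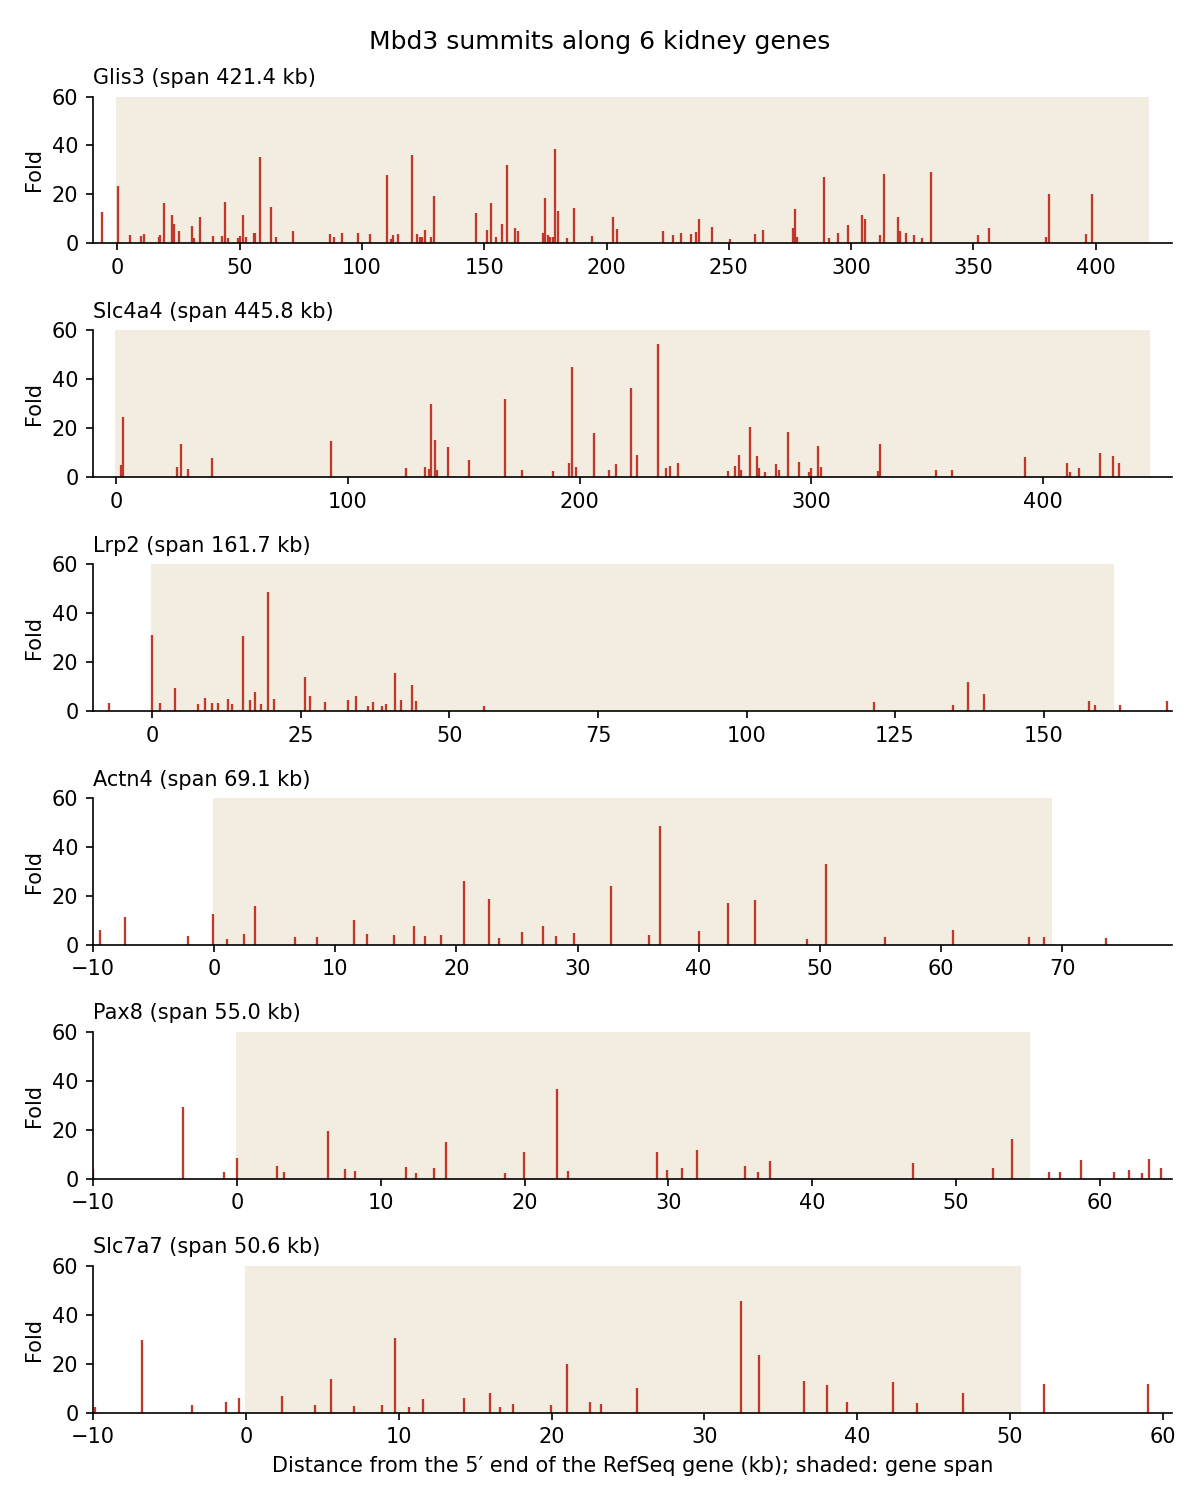
Position and fold of every Mbd3 summit in Glis3, Slc4a4, Lrp2, Actn4, Pax8 and Slc7a7, against distance from the 5′ end of the gene in kb, with 10 kb on either side of the shaded span. Summits of high fold stand among many of low fold, and the tallest of each gene lies inside the span away from the 5′ end.

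Per 10 kb, among kidney-list genes of at least 10 kb, Sall1 was the densest with 5.91 (10 summits in 16.9 kb). Transporters and enzymes of the proximal tubule followed: Slc7a7 with 4.94 (25 summits in 50.6 kb), Slc22a8, the organic anion transporter OAT3, with 4.86, and Fbp1, fructose bisphosphatase, with 4.67. Pax8, which specifies nephron epithelia, had 4.36 (24 summits in 55.0 kb). Slc6a19, the neutral amino acid transporter, had 4.28 and a summit of fold 70.25. Sparc, a matrix protein, had 4.24, Car2, carbonic anhydrase 2, had 4.14, and Aqp1, the proximal water channel, had 4.08. For all genes of at least 10 kb the median was 0.7029 per 10 kb and the 95th percentile 3.031.

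Median density ranged widely among the kidney lists, and so did gene span. Over all genes, the median density was 0 per 10 kb under 5 kb, 0.923 at 5 to 20 kb and 0.7355 at 20 to 50 kb. It was 0.6519 at 50 to 100 kb, 0.6674 at 100 to 200 kb and 0.3279 over 200 kb. Pooled density, all summits of a span class over its summed span, fell from 1.389 per 10 kb under 5 kb to 0.476 over 200 kb. A summit in the span was held by 66.2% of all protein-coding genes. Early proximal tubule genes had the highest median, 2.313 summits per 10 kb at a median span of 23.29 kb, with a summit in 30 of 32 genes. The thick ascending limb had 2.186 at 23.21 kb (16 of 16), and principal cells had 2.179 at 26.13 kb (14 of 16). Endothelium had 1.852 at 44.57 kb (18 of 18). Kidney transcription factors had 1.669 at 73.69 kb, with 840 summits in all. Of these 36 genes, 22 held 10 or more, where the share of all genes, at a median span of 17.33 kb, is 9.79%. Span bears on this count: genes of 50 to 100 kb had a median of 5 summits and an upper quartile of 9. For genes of 100 to 200 kb these were 9 and 17. Podocyte genes had 0.9166 at 57.86 kb (28 of 30), and those of the distal convoluted and connecting tubule 0.897 at 56.44 kb (17 of 18). Within the podocyte list, Magi2 and Actn4 led, whereas Nphs1, which encodes nephrin, held 2 summits.

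The members with most summits in the remaining lists were tubule, vessel and progenitor genes. In the tubule lists these were Atp11a (15) and Slc3a1 (14), a subunit of the cystine transporter, for the straight part, and Itgb6 (23) and Dcdc2a (14) for the injury response. Enox1 (20) came after Cldn10 in the thick ascending limb, Slc8a1 (25), a sodium and calcium exchanger, after Stk39 in the distal convoluted and connecting tubule, and Tfcp2l1 (21), a factor of collecting duct cells, after Nedd4l in principal cells. Intercalated cells were led by the pump subunits Atp6v0a4 (12) and Atp6v0d2 (7). Flt1 (26), a VEGF receptor, followed Nrp1 in endothelium, and Pax8 (24) and Pax2 (14) led nephron progenitors. Ncam1 (16) and Pax2 led parietal epithelium. Itga8 (12) and Gata3 (10) led mesangium and stroma.

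Gata3, a zinc finger factor of mesangium and collecting duct, had unlike counts in the 3 lists. It held 10 Mbd3 summits, 1 of Mta2 and 5 of Zbtb7a. Of the 10 Mbd3 peaks, 2 overlapped a Mta2 peak, and these were the strongest, with folds of 7.351 and 10.50. The other 8 had folds of 2.239 to 3.718. A Zbtb7a peak was overlapped by 5 of the 10. Among all Mbd3 peaks, grouped by cluster size, 90.49 to 93.64% overlapped a Mta2 peak and 74.05 to 85.13% a Zbtb7a peak. With 1 list per factor the difference between the lists at Gata3 could not be tested.

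Few immune genes held a summit, 5 of 16 (31.25%), where the share of all protein-coding genes is 66.2%. These genes are short, with a median span of 6.388 kb. Among all genes, 74.62% of those under 5 kb and 36.06% of those of 5 to 20 kb held none. The list's median was 0 per 10 kb, although Csf1r, the receptor of macrophages, held 8 and Cd4 held 5. In all, 12 kidney-list genes had no Mbd3 summit in the span or within 1 kb. Among them were Adgre1, C1qa, C1qb, Itgam and Itgax of the immune list, Cnn1 of smooth muscle, Foxi1 of intercalated cells and Krt20 of injured tubules. Adgre1, which encodes the macrophage marker F4/80, spans 124.9 kb without one. It also held none of Mta2 or Zbtb7a.

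Lists from outside the kidney served as a background. The median per 10 kb was 0.2282 for neuron genes, 0.159 for muscle, 0.2899 for hepatocytes and 0 for germ cells. Neuron genes had a summit in 17 of 18, where the share of all protein-coding genes is 66.2%, and had a median span of 97.82 kb. Lrp1b held 5 over 2058 kb and Csmd1 15 over 1643 kb, but Rbfox1 held 37 over 1528 kb. Rbfox3 held 26 over 421.8 kb, or 0.616 per 10 kb. In all, 5 of the 18 had a density above the median of all protein-coding genes, 0.5632. Metabolic lists shared with other organs had 1.719 (fatty acid oxidation, 24 of 26) and 1.333 (TCA cycle and oxidative phosphorylation, 23 of 27). A peak is not a measure of expression, so these lists do not check which cells the tissue held.

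The genes of NuRD itself were all occupied at a gene end (15 of 15, where the share of all protein-coding genes is 65.5%). This was not particular to them. It also held for the TCA cycle and oxidative phosphorylation (27 of 27), the straight proximal tubule (16 of 16) and parietal epithelium (10 of 10). Other lists had less, down to 4 of 16 for immune genes. Gatad2a held 22 summits in its span and Mbd2 14, and Chd4, Mta3 and Rbbp4 held 6 each. Mta1 held 4, and Mbd3, Gatad2b, Chd3 and Chd5 held 3 each. Mta2, Hdac1 and Cdk2ap1 held 2. Hdac2 and Rbbp7 held none in the span, but each had a summit at an end, of fold 11.11 and 24.87. The strongest at an end was that of Mbd2, with 29.01, and the weakest was that of the remodeller Chd3, with 4.391, although Chd3 had a summit of 31.67 inside its span.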

How the data were processed

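The authors used the mm10 build and the tools MACS2, Bowtie2, bedtools and deepTools, per the submitters' processing notes. Their versions and settings, and how the 2 libraries and Input entered peak calling, are not given in the sources used. The labels state 100 M paired-end reads per library, and the depth itself was not analysed here. The deposited list has the narrowPeak layout: interval, fold enrichment (a ratio, computed by the authors), the authors' −log10 q value and the deposited summit offset. Summits are start plus offset, 1-based. Lines on chromosomes other than 1 to 19 and X were left out.

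Genes, start sites and miRNAs came from RefSeq tables for GRCm38.p6. A summit within 1 kb of an end of a protein-coding gene was "gene end", otherwise inside a gene or distal. Summits were joined into clusters up to a fixed distance that lies between the alternatives of 5 and 25 kb. Overlap meant 1 shared bp. All 400 listed symbols matched. Counting used Python 3.11.15, pandas 2.3.3, NumPy 2.4.6, SciPy 1.17.1 and matplotlib 3.10.9, and was tested on simulated summits and genes.

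Members and lists were chosen with earlier results of these data known. The rule for named genes took the 20 kidney-list genes and 10 coding genes with most summits, the 10 densest kidney genes of at least 10 kb, those without a summit, the 2 leading members of each kidney list, NuRD subunits, and genes at the 5 largest clusters and 3 longest gaps. A few of these genes, and 1 of those clusters, are left out of the text. Promoters, motifs, start sites and miRNAs were added after the values were seen. Alternatives were stricter peaks, other windows, joining distances and spans, and interval midpoints.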

Additional observations from a re-analysis of the deposited data

Results flagged for a closer look

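Chromosome Y was left out of every count above, and 156 Mbd3 peaks lay on it. Their folds ran from 1.345 to 13.63 with a median of 3.122, and 32 lay in the first 5 Mb. The other lists held 143 (Mta2) and 80 (Zbtb7a) peaks there. They were set apart because no comparison above uses them.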

How the results depend on the processing

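The share of summits at gene ends was 15.05% with peaks of −log10 q of at least 10, 18.27% with fold of at least 5, 9.287% and 21.02% with windows of 0.5 and 3 kb, and 16.91% with genes of all types. In the same order, the share inside genes was 49.74, 47.92, 53.65, 46.14 and 56%, and the distal share 35.21, 33.8, 37.07, 32.84 and 27.09%. The order inside, distal, gene end held in each. Median spacing was 7037 bp at −log10 q of at least 10 and 9377 bp at fold of at least 5. Clusters of 20 or more numbered 286 and 83 under those filters, and 118 and 1650 when joined up to 5 and 25 kb. Genes with 10 or more summits numbered 1265, 819 and, with spans extended by 10 kb, 3410. The median density of kidney-list genes was 0.8294 and 0.5703 per 10 kb under the filters, against 0.324 and 0.1697 for all protein-coding genes. Fewer peaks enter under the filters by construction. Kidney-list genes with a summit went from 236 to 215, 193 and 258. Of the 20 leading kidney genes, 18, 15 and 19 stayed among the first 20, Glis3 leading each time. Interval midpoints moved no share or spacing by more than its counting interval or 1.5 times, and neither did leaving out 25 peaks of fold under 3 with −log10 q over 100, an alternative chosen after seeing the data. No paired analysis was possible because 1 list stands for both libraries of each factor, and for the same reason no library could be left out. Depth limits how many weak summits were called.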

Other observations

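MicroRNA hairpins gave a further view of Mbd3 near short kidney genes. The list of kidney miRNAs was written after the files were seen. Of 1005 hairpins, 283 (28.2%) had a Mbd3 summit within 1 kb. All 5 hairpins of the epithelial miR-200 family had one, with a fold of 16.58 at the cluster of Mir200a, Mir200b and Mir429 and 7.142 at that of Mir200c and Mir141. Members of one cluster share their summit. The tubule miRNAs Mir192 and Mir194-2 shared one of fold 6.758, and Mir194-1 and Mir215 one of 4.035. The mature sequences are shown because the hairpins fall into seed groups that cut across these 2 loci (RefSeq, GRCm38.p6, 5′ to 3′, capitals mark the seed, bases 2 to 8).
miR-192-5p: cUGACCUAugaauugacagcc
miR-215-5p: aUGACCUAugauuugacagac
miR-200b-3p: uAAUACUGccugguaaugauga
miR-200c-3p: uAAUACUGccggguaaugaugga
miR-429-3p: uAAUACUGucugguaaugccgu
miR-200a-3p: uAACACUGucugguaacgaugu
miR-141-3p: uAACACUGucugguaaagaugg
miR-192-5p and miR-215-5p have the seed UGACCUA although their hairpins lie on chromosomes 19 and 1. miR-200b-3p, miR-200c-3p and miR-429-3p have AAUACUG, and miR-200a-3p and miR-141-3p have AACACUG. Mir30a had a summit of fold 12.03 within 1 kb, and Mir30c-1, Mir30c-2 and Mir30e had none. Mir204 of tubules had none within 10 kb.

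Of the 48507 distal summits, 6.609% lay within 1 kb of an end of a long non-coding RNA gene, 15.64% inside one and 77.75% at neither. Of the 906 clusters of 20 or more summits, 35 overlapped no protein-coding gene. The largest of these held 56 summits over 90.33 kb, 2.162 kb from Gas8, and had no fold above 9.294. Its density was 6.199 summits per 10 kb, against a median of 3.064 over the 906 clusters. Mta2 and Zbtb7a had 60 and 53 summits in it. The next held 46 over 151.0 kb, 35.49 kb from Ptpn1, and reached 34.06.

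The list held 25 Mbd3 peaks whose −log10 q was over 100 at a fold below 3. Of these, 17 lay close together at the start of chromosome 9 (chr9:3000278-3038022). The Mta2 and Zbtb7a lists held 23 and 25 such peaks.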
